A study of Mus musculus with 21 samples.

Results

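The genes described are those of cholesterol synthesis and its control by the sterol regulatory element-binding proteins (SREBPs), measured as RNA in colon and ileum of mice with or without a transgenic vitamin D receptor (VDR). They were chosen by symbol from a list of 30 names, and 29 of them were found among the 21441 genes of each deposited table. Values of Mylip are not analysed here, and only its promoter window is counted below. RNA came from intestinal epithelium, per the labels, of C57BL6J mice in 6 groups and 21 samples. The treated groups were CDX2-VDR transgenic mice, which lack VDR of their own and carry human VDR in the distal intestine, and received 3 injections of 1,25-dihydroxyvitamin D3 (1,25D3, 1 ng per g of body weight) at 48, 24 and 6 h before the end. The uninjected groups were CDX2-VDR transgenic mice without treatment. The KO groups were untreated Villin-CreERT2 VDR f/f mice, in which a Cre recombinase driven by the villin promoter removes VDR from the intestinal epithelium once tamoxifen activates it. Whether tamoxifen was given to one genotype or to both is not given in the sources used here. In the colon there were 3 treated, 4 uninjected and 4 KO samples, and in the ileum 3 treated, 3 uninjected and 4 KO samples. Treated mice were males of 9 weeks. Uninjected mice were females of 9 weeks, except 1 male of 10 weeks in each tissue, and KO mice were males of 9 to 11 weeks. Between treated and KO mice, all male, genotype, transgene, 1,25D3, the injections themselves and, for most KO mice, age changed together. Between treated and uninjected mice of the same genotype, 1,25D3, the injections and, for most mice, sex did. Between uninjected and KO mice, genotype, transgene and, for most mice, sex and age did. Within each comparison these cannot be told apart. No label names an animal, so the spread that enters a p-value is that between samples and may be technical.

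Cholesterol is built from acetyl-CoA through mevalonate, farnesyl diphosphate, squalene and lanosterol. SREBP-2, encoded by Srebf2, raises transcription of nearly every enzyme of the path when membranes run short of sterol, and SREBP-1, encoded by Srebf1, acts more on fatty acid genes such as Fasn. Scap carries both factors out of the endoplasmic reticulum, and Insig1 and Insig2 hold them back when sterol is plentiful. In the intestine the path runs beside the uptake of dietary sterol, and its substrate for the last step, 7-dehydrocholesterol, is also the precursor of vitamin D in skin.

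The sequence that SREBPs bind lies close to the start of several of these genes, often beside CCAAT boxes bound by the factor NF-Y. RefSeq promoter windows (GRCm38.p6, 250 bases before to 50 bases after a start) were matched by symbol or synonym for 25 of the 30 names, in 33 windows. Sqle, Fdft1, Fdps, Stard4 and Abcg1 had no entry. The SREBP element, searched as TCACNCCAC on both strands, stood in 1 of the 33 windows, and in 408 of all 32851 windows (1.24%). CCAAT, searched on both strands, stood in 23 of the 33 windows and in 37.4% of all windows. The match to the element was in Hmgcs1, starting 137 bases before the start, whereas the window of Mvk held 5 CCAAT boxes and no such match. Both are shown with the matches in capitals, Hmgcs1 at chr13:119690101-119690400 (plus strand) and Mvk at chr5:114444019-114444318 (plus strand). A match is a description of the letters and not of binding.
Hmgcs1: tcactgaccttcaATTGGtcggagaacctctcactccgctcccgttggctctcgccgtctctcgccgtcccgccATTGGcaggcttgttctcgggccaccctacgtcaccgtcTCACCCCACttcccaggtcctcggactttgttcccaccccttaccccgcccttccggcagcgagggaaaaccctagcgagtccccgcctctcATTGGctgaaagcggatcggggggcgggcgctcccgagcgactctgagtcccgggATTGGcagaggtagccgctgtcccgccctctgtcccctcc
Mvk: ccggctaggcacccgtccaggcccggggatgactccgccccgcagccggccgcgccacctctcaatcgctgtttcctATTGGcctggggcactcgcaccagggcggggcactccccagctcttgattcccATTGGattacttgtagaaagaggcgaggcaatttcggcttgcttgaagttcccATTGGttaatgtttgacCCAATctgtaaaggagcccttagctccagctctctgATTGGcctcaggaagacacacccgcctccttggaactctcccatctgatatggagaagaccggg

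A second property of these sequences is the share of G and C in the transcript, which differs widely within the pathway and is set beside the values of single libraries below. It was taken from the longest coding transcript in GENCODE vM1 on mm9, the build that the submitters' processing notes name, for 28 of the 29 genes. Hmgcs1 had no entry there. Mvk (59.4%), Mvd (59.3%) and Scap (59.2%) were the richest in G and C, and Ggps1 (41.3%) and Idi1 (41.5%) the poorest. The last 120 coding bases show the contrast, with G and C in capitals: they make up 64.2% of the stretch in Mvk (gene at chr5:114894278-114910600, plus strand) and 34.2% in Idi1 (gene at chr13:8884852-8891641, plus strand).
Mvk: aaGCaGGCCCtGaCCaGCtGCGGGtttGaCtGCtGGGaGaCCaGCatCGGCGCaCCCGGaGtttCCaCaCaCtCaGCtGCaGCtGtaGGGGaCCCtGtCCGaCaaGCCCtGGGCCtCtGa
Idi1: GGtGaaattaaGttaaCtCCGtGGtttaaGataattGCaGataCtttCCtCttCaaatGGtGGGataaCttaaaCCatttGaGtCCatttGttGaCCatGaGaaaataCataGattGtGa

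Values are FPKM, which are scaled to transcript length and library depth, in 6 deposited tables that each hold 2 groups of a tissue. Whole reads worked out from these values, over the genes with the same number in both tables of a library, summed to 7.99 to 33.2 M per colon library and 9.57 to 32.0 M per ileum library. Of the 29 genes, the thinnest was Fdft1, with 12 to 214 reads per library. Mouse Vdr had 20.7 to 39.9 FPKM in treated and 22.1 to 24.9 FPKM in KO colon, and 13.4 to 22.6 FPKM in treated and 20.3 to 22.2 FPKM in KO ileum, so its summed level did not separate those genotypes. In the table of uninjected and KO ileum it had 22.1 to 24.9 FPKM in uninjected and 19.3 to 21.0 FPKM in KO ileum, without overlap, and in that of colon 12.7 to 34.0 FPKM in uninjected and 20.6 to 23.5 FPKM in KO colon. KO libraries held mouse Vdr reads, and the gene total does not check the deletion. Where along the transcript its reads lie was not analysed here. Colonocyte and ileal enterocyte markers differed between the labelled tissues: 5 colonocyte markers summed to 5010 FPKM or more in every treated and KO colon library and to 945 FPKM or less in every treated and KO ileum library. Uninjected colon 2 had the lowest colonocyte sum of its group, 3043 FPKM. Ileal enterocyte markers summed to 17012 FPKM or more in every treated and KO ileum library, and to 4773 FPKM in colon treated 2 and 3640 FPKM in colon uninjected 3, against 610 and 676 FPKM in the other 2 treated colon libraries and 416 to 1105 FPKM in KO colon. None of 9 lists of cell type markers held a gene past the test in any comparison. Pancreatic acinar markers were high in 3 colon libraries, at 22869 FPKM in treated 4, 126726 FPKM in uninjected 3 and 41740 FPKM in KO 2, against 132 and 340 FPKM in the other 2 treated libraries.

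Before any comparison, 4 libraries stood apart by GC content. In each table, the deviation of a library from the table mean on the log2(FPKM + 0.5) scale was regressed on the GC content and length of all genes. Beside KO libraries, the slope per 10% of GC was 1.10 in ileum treated 1, 1.02 in ileum uninjected 3, 0.80 in colon uninjected 1 and -0.43 in colon treated 4, and between -0.30 and 0.13 in the KO libraries. Ileum treated 4 (-0.41) and colon uninjected 2 (0.39) had slopes of about the size of that of colon treated 4 and were kept throughout. Genes of cholesterol synthesis followed the same line. In ileum treated 1, Mvd stood 1.06 above and Idi1 1.94 below their table means, and in ileum uninjected 3 Mvd stood 1.44 above and Idi1 1.51 below. Across 27 of the genes, the deviation correlated with GC content with r = 0.90 in ileum treated 1 and 0.93 in ileum uninjected 3, and across 28 genes with r = 0.81 in colon uninjected 1 and -0.59 in colon treated 4. These are descriptions, since all genes of a library share its preparation. Comparisons are therefore given with and without these libraries.

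**Figure D1:**
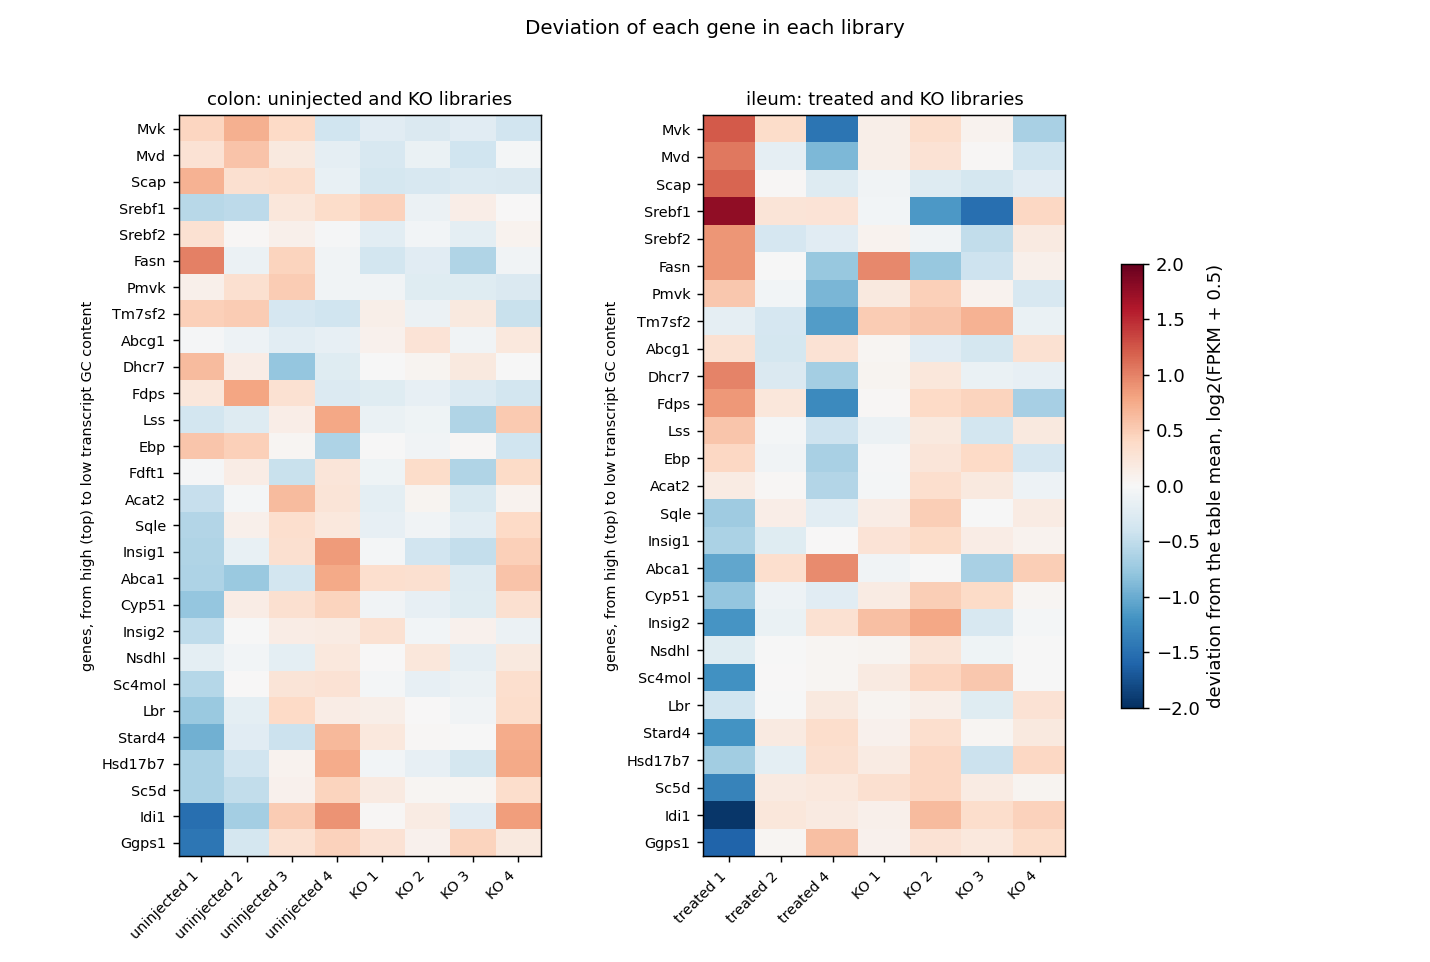
Colour gives the deviation of each gene from its table mean in each library, log2(FPKM + 0.5), with genes running from high transcript GC at the top to low at the bottom. Left, uninjected and KO colon, and right, treated and KO ileum: ileum treated 1 and colon uninjected 1 turn from red to blue down the page, and colon uninjected 4 and KO 4 share red in the lower rows.

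**Figure D2:**
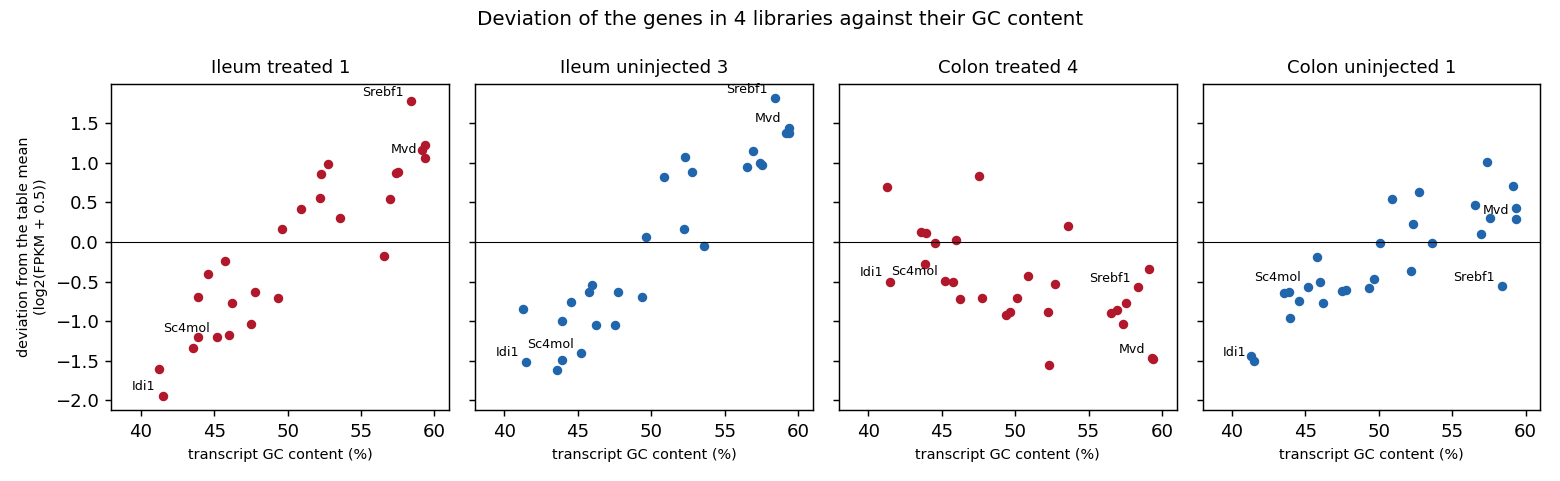
Each point is a gene of cholesterol synthesis or SREBP control, with transcript GC content (%) on the horizontal axis and its deviation from the table mean in that library on the vertical axis. Deviations climb with GC content in ileum treated 1 (r = 0.90), ileum uninjected 3 (r = 0.93) and colon uninjected 1 (r = 0.81), and drop in colon treated 4 (r = -0.59).

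Most of the pathway was well expressed. In KO colon, 24 of the 29 genes averaged 10 FPKM or more, and in KO ileum 23 did. Fdps, the synthase of farnesyl diphosphate, was highest in both tissues, with 164 ± 9.0 FPKM in KO colon and 194 ± 61 FPKM in KO ileum (SD, n = 4 each). Sc4mol, the sterol methyl oxidase also called Msmo1, followed with 109 ± 18 and 142 ± 24 FPKM. The next places went to Idi1, Sqle, Insig1, Ebp, Srebf2 and Cyp51 in KO colon, between 50.8 and 60.7 FPKM, and these neighbours did not differ beyond their spread. The efflux pumps Abca1 and Abcg1 and squalene synthase Fdft1 were lowest, at means of 1.35 to 1.61 FPKM in KO colon and 0.91 to 1.91 FPKM in KO ileum. Among KO libraries, Scap varied least in colon (coefficient of variation 2.75%) and Hmgcs1 most (66.8%), and the median over the genes was 13.6% in colon and 19.1% in ileum. Colon and ileum were not tested against each other, because their tables were scaled separately.

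In treated against KO colon, the enzymes that turn lanosterol into cholesterol were mostly lower, but no gene of the pathway passed the test. Each comparison was tested with limma on log2(FPKM + 0.5), with Benjamini-Hochberg adjustment over all genes tested and a threshold of 0.05. Here 0 of 29 genes passed, against 37 of all 12505 genes (0.296%). At an unadjusted p under 0.05 there were 3 of the 29, against 914 of all genes (7.31%). By direction alone, 23 were lower and 6 higher, with a median log2 difference of -0.31, against -0.01 over all genes, of which 51.0% were lower. In bulk RNA of this kind, fewer cells of a type and less RNA per cell cannot be told apart.

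Of the 9 genes from lanosterol to cholesterol, 8 were lower, with a median of -0.33. Dhcr7, which reduces 7-dehydrocholesterol to cholesterol, had 30.2, 23.4 and 22.5 FPKM in treated colon, against 37.7, 39.4, 43.7 and 37.8 FPKM in KO colon. All 3 treated libraries lay below all 4 KO libraries. Its log2 difference was -0.64 (SE 0.16, 95% interval -1.02 to -0.27), with a limma adjusted p of 0.292. Sc4mol had 79.3, 72.9 and 64.3 FPKM in treated colon, against 103.7, 95.7, 100.1 and 135.1 FPKM in KO colon. The groups again did not overlap, with a log2 difference of -0.58 (SE 0.18) and a limma adjusted p of 0.443. Cyp51, the lanosterol demethylase, was the third without overlap, at 41.8, 43.8 and 26.3 FPKM in treated against 43.9 to 64.6 FPKM in KO colon, a margin of less than 0.1 FPKM between the nearest libraries. Its log2 difference was -0.46 (SE 0.23) with a limma adjusted p of 0.723. Groups without overlap made up 3 of the 29 genes and 8.04% of all genes, and in the lower direction 3.89% of all genes. Tm7sf2, a sterol reductase, overlapped, with 20.3, 26.3 and 13.1 FPKM in treated and 34.0, 28.7, 36.2 and 22.9 FPKM in KO colon (log2 difference -0.63, SE 0.26, limma adjusted p = 0.671). Lbr, the other sterol reductase of that step, was the only one of the 9 with a positive difference, 0.10 (SE 0.16).

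Of the 8 genes of the mevalonate steps, 7 were lower with all libraries and 3 without treated 4. That library, which also had the high acinar markers, was the lowest of the treated group in 23 of the 29 genes, against 36.8% of all genes. Fdps had 174.0, 189.7 and 47.7 FPKM in treated colon, the last in treated 4, against 152.9 to 174.9 FPKM in KO colon. Mevalonate kinase Mvk ran the same way, at 28.6, 50.8 and 8.54 FPKM in treated against 23.9 to 26.7 FPKM in KO colon. Treated 4 lay far below and the other 2 treated libraries at or above every KO value of Mvk. With the GC and length trend removed from every library and all libraries kept, 21 of 28 genes were lower, with a median of -0.28. Without treated 4, 12 genes were higher and 17 lower, the median was -0.10, and Mvk and Fdps had log2 differences of 0.57 and 0.15. Dhcr7 and Sc4mol kept differences of -0.57 and -0.50 without it, and 8 of the 9 later enzymes were lower still. With that library left out, 0 of 29 genes passed, against 49 of 12472 genes (0.393%), and groups without overlap were 7 of the 29 and 26.6% of all genes. Goblet cell markers differed alongside, with sums of 8034 to 10119 FPKM in treated and 14686 to 22175 FPKM in KO colon, although none of their 6 genes passed. Summed markers of smooth muscle and stroma, at 1781 to 2265 FPKM in treated and 2294 to 3153 FPKM in KO colon, did not overlap either. The part of other cells in the lower sterol enzymes was not tested.

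Of the 5 genes of SREBP control, 3 were higher and 2 lower, with differences between -0.35 and 0.13. Srebf2 had 51.8, 66.3 and 28.5 FPKM in treated colon, against 47.1, 52.5, 48.0 and 57.2 FPKM in KO colon, and Scap averaged 21.4 ± 6.3 in treated (n = 3) and 18.9 ± 0.52 FPKM in KO colon (SD, n = 4). Insig1, a direct SREBP target, had 44.2, 62.0 and 30.6 FPKM in treated colon, within the 43.3 to 84.3 FPKM of KO colon but for treated 4, and had the difference of -0.35 (SE 0.31). Srebf1 spread from 8.18 to 25.8 FPKM in treated and from 10.2 to 15.4 FPKM in KO colon. The 95% interval of the Srebf1 difference ran from -0.76 to 0.93, so these samples leave room for differences in either direction.

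In treated against uninjected colon, 0 of 28 genes passed, as did 0 of 12567 genes (0.00%). At an unadjusted p under 0.05 there were 0 of the 28 and 143 of all genes (1.14%). Fdft1 fell below the mean of 1 FPKM required of a tested gene. By direction, 19 were lower and 9 higher, with a median of -0.36 against -0.01 over all genes, of which 50.8% were lower. Without treated 4 alone the median was -0.06. No gene of the pathway had groups without overlap, against 1.37% of all genes. Fdps showed the largest difference among them, with 164.6, 178.8 and 45.6 FPKM in treated and 218.7, 324.0, 228.1 and 152.8 FPKM in uninjected colon. All but the last uninjected library lay above the treated ones (log2 difference -1.01, SE 0.51, limma adjusted p = 0.9995). Mevalonate decarboxylase Mvd had 32.4, 45.8 and 11.1 FPKM in treated and 37.6 to 63.8 FPKM in uninjected colon (log2 difference -0.95, SE 0.46). Fasn, the fatty acid synthase, had 17.1, 36.8 and 9.92 FPKM in treated and 56.9, 25.9, 37.95 and 26.6 FPKM in uninjected colon (log2 difference -0.90, SE 0.47). Mvd and Fasn are rich in G and C, and all 3 genes had their lowest value in treated 4. Without treated 4 and uninjected 1, their differences were -0.39, -0.34 and -0.24, and the median over the genes was -0.23, with 21 lower and 8 higher of 29. In that smaller fit 2 genes had groups without overlap, Sc4mol and Cyp51, against 5.19% of all genes. There Sc4mol had 75.0 and 68.7 FPKM in treated and 102.1, 120.4 and 123.7 FPKM in uninjected colon (log2 difference -0.68). Goblet markers again summed lower, at 7569 to 9653 FPKM in treated and 10454 to 16699 FPKM in uninjected colon, and their part was not tested.

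In uninjected against KO colon, the genes split evenly, 14 higher and 15 lower, with a median of -0.01, and 50.7% of all genes were lower. None of the 29 passed, against 10 of 12437 genes (0.0804%), and 4 of the 29 had an unadjusted p under 0.05, against 572 of all genes (4.60%). Scap, the escort of SREBPs, was the only gene of the pathway whose groups did not overlap, against 2.71% of all genes, or 1.22% counting the higher direction. It had 36.3, 27.9, 28.4 and 19.8 FPKM in uninjected and 17.3, 17.7, 18.3 and 17.96 FPKM in KO colon. Every uninjected library was higher, and KO libraries lay within 1 FPKM of each other (log2 difference 0.61, SE 0.21, limma adjusted p = 0.721). Without uninjected 1 the difference of Scap was 0.48. The GC-rich Mvk (0.57, SE 0.25), Fasn (0.63, SE 0.27) and phosphomevalonate kinase Pmvk (0.43, SE 0.19) were the other genes with an unadjusted p under 0.05 in limma. Without uninjected 1, 19 genes were higher and 10 lower, with a median of 0.10. Without uninjected 4 instead, the median was -0.09.

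Several genes of the pathway spread widely between libraries of a group, in both genotypes. Hmgcs1, a synthase of the mevalonate path, had 7.45, 18.5, 31.7 and 66.9 FPKM in uninjected 1 to 4, and 30.5, 22.2, 19.6 and 71.1 FPKM in KO 1 to 4. Idi1, the diphosphate isomerase, had 16.5, 29.6, 68.4 and 89.4 FPKM in the uninjected and 48.4, 53.5, 40.6 and 85.8 FPKM in the KO libraries. For both genes the library numbered 4 was the highest of its group. Of 29 genes, uninjected 4 was the highest of its group in 15 and KO 4 in 17, against 28.2% and 33.5% of all genes. Among them, Stard4, a carrier of sterol between membranes, had 51.8 FPKM in uninjected 4 against 16.6 to 28.0 in the other uninjected libraries, and 55.2 FPKM in KO 4 against 32.6 to 38.1 in the other KO libraries. Across the 29 genes, the deviations of uninjected 4 and KO 4 from their group means correlated with r = 0.77, with 15 genes above the mean in both, and across all 12437 genes with r = 0.67. The other 3 same-numbered pairs had r between -0.01 and 0.00 over all genes. Uninjected 4 was the only male of its group, and KO 4 was 1 of 3 KO colon samples of 11 weeks. They were also the most deeply sequenced of their groups, at 33.2 and 23.0 M reads. Beside treated libraries, their deviations over all genes also rose with transcript length, with slopes of 0.26 and 0.21 per doubling, the highest of their tables. Their slopes per 10% of GC were -0.30 and -0.098. Summed markers of smooth muscle and stroma ran from 1451 FPKM in uninjected 3 to 7071 FPKM in uninjected 1, against 2165 to 2941 FPKM in KO colon. Those of proliferating crypt ran from 120 FPKM in uninjected 1 to 554 FPKM in uninjected 3, against 223 to 302 FPKM in KO colon. The part of cell types, sex, age, depth, GC content and length was not tested.

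**Figure D3:**
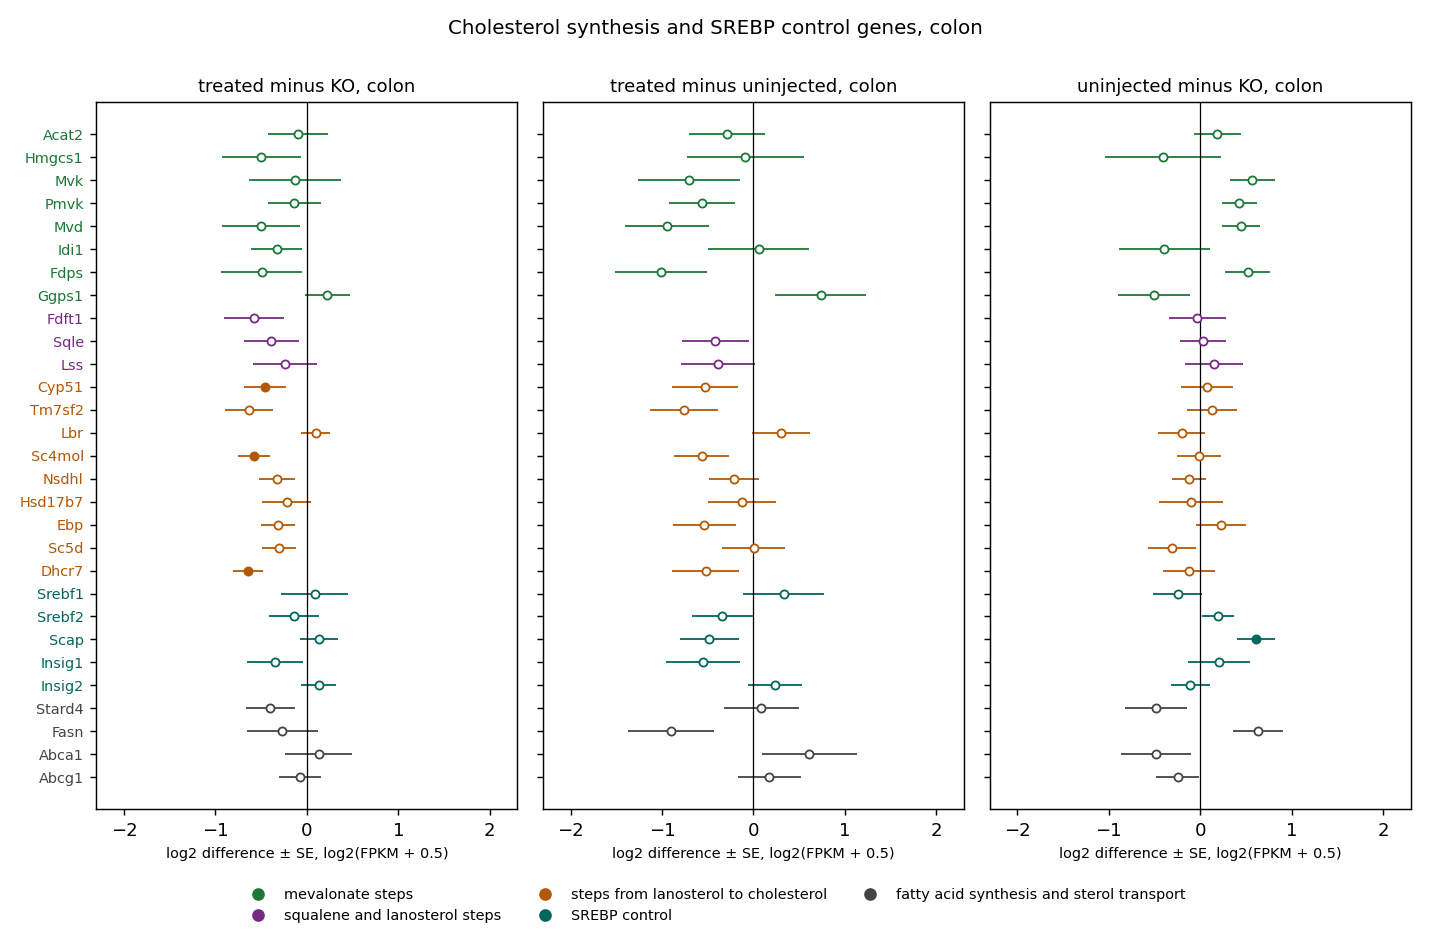
Points give the log2 difference of each gene in colon, in log2(FPKM + 0.5), with bars of ± 1 SE from limma, for treated minus KO, treated minus uninjected and uninjected minus KO from left to right; colours mark the steps of the pathway, and filled points are genes whose groups did not overlap. Enzymes from lanosterol to cholesterol lie mostly left of 0 in treated minus KO (median -0.33), and no gene passed the test.

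In treated against KO ileum, 0 of 28 genes passed, against 10 of 11974 genes (0.0835%). At an unadjusted p under 0.05 there were 3 of the 28 and 437 of all genes (3.65%). By direction, 19 were lower and 9 higher, with a median of -0.20, against 0.00 over all genes, of which 49.8% were lower. Groups did not overlap for 3 of the 28 genes, against 5.0% of all genes, and all 3 were lower, against 1.97% of all genes. Tm7sf2 had 34.5, 30.8 and 17.8 FPKM in treated and 55.7, 57.7, 63.3 and 35.4 FPKM in KO ileum. The highest treated library lay just under the lowest KO library (log2 difference -0.95, SE 0.32, 95% interval -1.66 to -0.23, limma adjusted p = 0.939). Cyp51 had 31.0, 49.6 and 45.5 FPKM in treated and 59.8, 74.9, 69.1 and 54.8 FPKM in KO ileum (log2 difference -0.63, SE 0.26). Insig1 had 27.7, 36.5 and 43.4 FPKM in treated and 52.2, 56.8, 48.2 and 45.5 FPKM in KO ileum (log2 difference -0.51, SE 0.24). Without ileum treated 1 their differences were -1.13, -0.43 and -0.34. After the GC and length trend was removed from every library they were -1.14, -0.52 and -0.46. On those values 6 of 27 genes had groups without overlap, these 3 among them, against 8.22% of all genes. The 3 were named because they did not overlap in the same libraries before.

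**Figure D4:**
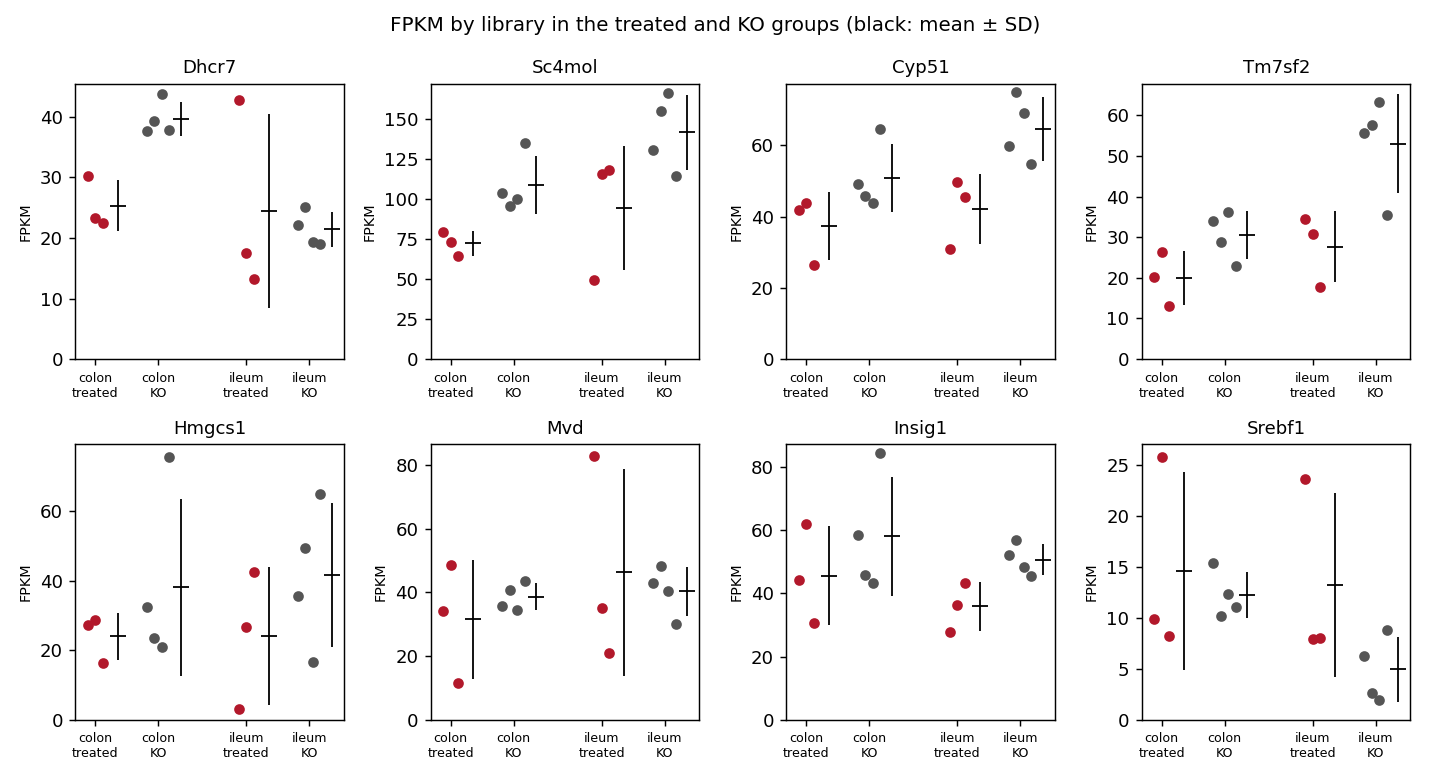
Each point is the FPKM of 1 library for 8 genes, in treated (red) and KO (grey) colon and ileum, with the group mean ± SD in black beside the points (n = 3 treated and 4 KO in each tissue). Dhcr7 and Sc4mol separate the colon groups, Tm7sf2 and Insig1 the ileum groups, and Cyp51 both, in colon only narrowly. A single ileum treated library holds the extreme of Hmgcs1 (3.09 FPKM), Mvd (82.9 FPKM) and Srebf1 (23.6 FPKM).

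Several extreme values of treated ileum lay in the GC-tilted library, treated 1. The part of GC content in them was not tested, and Hmgcs1 had no GC entry. Hmgcs1 had 3.09, 26.8 and 42.4 FPKM in treated and 16.5 to 65.0 FPKM in KO ileum. Only treated 1 lay outside the KO range, and the difference was -1.22 (SE 0.80) with it and -0.14 without it. Mvd turned from 82.9 FPKM in treated 1 to 35.0 and 21.0 FPKM in the other treated libraries, against 30.0 to 48.4 FPKM in KO ileum. Its difference was -0.01 with treated 1 and -0.55 without it. Srebf1 had 23.6, 7.92 and 8.02 FPKM in treated and 6.26, 2.66, 1.97 and 8.84 FPKM in KO ileum (log2 difference 1.35, SE 0.55, limma adjusted p = 0.939). Without treated 1 it was 0.85. Leaving that library out, 21 genes were lower and 7 higher, the median was -0.20, and 0 of 28 genes passed, against 0.0669% of all genes. With it left out, groups without overlap were 4 of the 28 and 10.7% of all genes. Ileal enterocyte markers had sums of 17012 to 27533 FPKM in treated and 21260 to 59650 FPKM in KO ileum, and their part was not tested.

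In treated against uninjected ileum, 24 of 28 genes were lower and 4 higher, with a median of -0.39, against -0.02 over all genes, of which 52.8% were lower. None of the 28 passed, nor did any of 11815 genes (0.00%), and 1 of the 28 had an unadjusted p under 0.05, against 97 of all genes (0.821%). All 8 genes of the mevalonate steps and all 5 of SREBP control were among the lower ones. Tm7sf2 had 31.6, 28.5 and 16.7 FPKM in treated and 65.6, 102.5 and 34.1 FPKM in uninjected ileum. Acat2, the thiolase that joins acetyl-CoA, had 28.8, 26.5 and 17.4 FPKM in treated and 32.7, 30.6 and 31.5 FPKM in uninjected ileum. Both had groups without overlap, against 2.70% of all genes and 1.22% in the lower direction, with log2 differences of -1.30 (SE 0.49) and -0.41 (SE 0.35) and a limma adjusted p of 1. Each group holds 1 of the GC-tilted libraries, which held the highest Pmvk value of its group. Set beside each other, both had a slope of 0.81 per 10% of GC. Slopes are measured from the table mean, so those of the libraries kept throughout depend on these 2. The kept libraries had -0.70 in treated 4, -0.42 in treated 2, -0.38 in uninjected 4 and -0.12 in uninjected 1. Beside KO libraries, treated 2 had -0.13 and treated 4 -0.41. Pmvk had 69.9 FPKM in treated 1 and 142.6 FPKM in uninjected 3, and 25.8 to 80.9 FPKM in the other 4 libraries. Ileal enterocyte markers summed to 15928 to 25528 FPKM in treated and 24590 to 55399 FPKM in uninjected ileum, and their part was not tested. With both tilted libraries left out, 2 treated and 2 uninjected libraries remained. In them 25 of 28 genes were lower, the median was -0.43, and 18 genes had groups without overlap, against 28.3% of all genes. None of the 28 passed there, nor did any of 11842 genes (0.00%). Sqle, the epoxidase that acts on squalene, had 83.2 and 66.3 FPKM in these treated libraries and 129.3 and 110.2 FPKM in the uninjected ones (log2 difference -0.68). Lss, the cyclase that makes lanosterol, had 6.74 and 5.12 FPKM in treated and 10.9 and 8.24 FPKM in uninjected ileum (log2 difference -0.65).

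In uninjected against KO ileum, 15 genes were higher and 13 lower, with a median of 0.08 against 0.01 over all genes, of which 48.9% were lower. None of 28 passed, against 1 of 11827 genes (0.00846%), and 2 of the 28 had an unadjusted p under 0.05, against 641 of all genes (5.42%). Srebf2, Scap and Lss had groups without overlap, all higher, against 8.61% of all genes and 5.26% in the higher direction. Srebf2 had 55.8, 94.5 and 49.7 FPKM in uninjected and 43.6, 39.1, 28.9 and 46.2 FPKM in KO ileum (log2 difference 0.71, SE 0.31, limma adjusted p = 0.665). Scap had 12.9, 37.3 and 14.9 FPKM in uninjected and 12.3, 10.9, 9.99 and 10.9 FPKM in KO ileum (log2 difference 0.79, SE 0.36). Lss had 11.3, 8.96 and 8.41 FPKM in uninjected and 6.53, 8.23, 5.41 and 8.12 FPKM in KO ileum (log2 difference 0.42, SE 0.25). Srebf1 overlapped in spite of the widest difference, with 6.15, 23.5 and 9.92 FPKM in uninjected and 6.01, 2.56, 1.87 and 8.38 FPKM in KO ileum (log2 difference 1.39, SE 0.56). Without ileum uninjected 3, the differences of Srebf2, Scap, Lss and Srebf1 were 0.43, 0.32, 0.46 and 0.88, and 24 of the 28 genes were higher, with a median of 0.29. Without uninjected 1 instead, the median was -0.09, so its sign rested on single libraries. Without uninjected 3, 8 of the 28 genes had groups without overlap, against 12.4% of all genes. Neither the 28 genes nor any of 11841 passed there (0.00%).

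**Figure D5:**
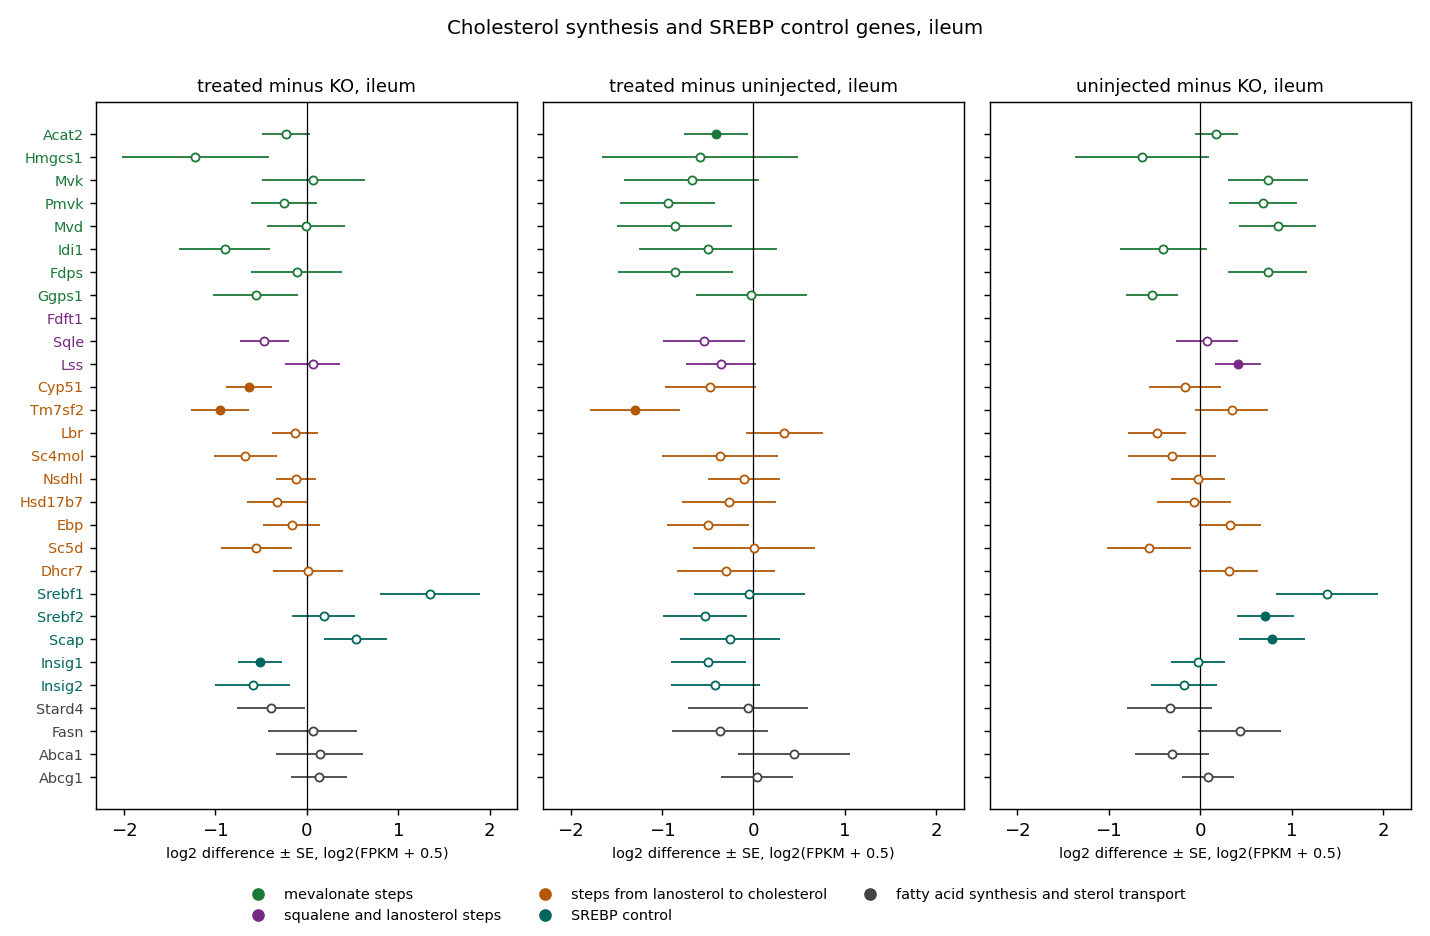
Points give the log2 difference of each gene in ileum, in log2(FPKM + 0.5), with bars of ± 1 SE from limma, for treated minus KO, treated minus uninjected and uninjected minus KO from left to right; colours and filled points are as in the colon plot of differences. In treated minus uninjected nearly all points lie left of 0 (24 of 28) with wide bars, and no gene passed the test.

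Further genes around the pathway, in 5 lists named by function, also held no gene past the test in any of the 6 comparisons. In treated against KO colon, 11 of 15 fatty acid genes under SREBP were lower, with a median of -0.28, against 51.0% of all genes. Thrsp, a regulator of lipid synthesis, averaged 2.38 ± 0.99 FPKM in treated and 9.32 ± 3.6 FPKM in KO colon (log2 difference -1.74, limma adjusted p = 0.166, SD, n = 3 and 4). In treated against uninjected colon Thrsp averaged 2.26 ± 0.93 and 24.2 ± 32 FPKM (log2 difference -2.43, limma adjusted p = 0.9995). Ch25h, the hydroxylase that makes an oxysterol known to hold back SREBP processing, averaged 2.21 ± 0.27 FPKM in treated and 0.81 ± 0.14 FPKM in KO colon (log2 difference 1.05, limma adjusted p = 0.151). Stard5, a sterol carrier, averaged 45.8 ± 12 FPKM in treated and 24.6 ± 4.5 FPKM in KO colon (log2 difference 0.87, limma adjusted p = 0.290). In treated against KO ileum, 9 of 10 tested genes of sterol efflux and LXR signalling were higher, with a median of 0.29. In uninjected against KO ileum 8 of 10 were, with a median of 0.26. Of all genes, 49.8% and 48.9% were lower there. Those 2 comparisons share their KO samples, and each includes a GC-tilted library, ileum treated 1 or uninjected 3. Treated against KO colon and treated against uninjected ileum each had 5 of 10 higher. Treated against uninjected colon had 7 of 10 and uninjected against KO colon 4 of 9. Of the other lists, the genes of SREBP processing and sterol-regulated degradation had medians between -0.39 and 0.12, the isoprenoid branch between -0.12 and 0.11, and the further sterol genes between -0.09 and 0.15.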

How the data were processed

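RNA of 21 samples of mouse colon and ileum was measured by RNA-seq. The authors deposited FPKM per gene, in 6 tables of 2 groups each, and per the submitters' processing notes mm9, kallisto 0.45.0, DESeq 1.14.0 and DESeq2 were used, with no role given for each. Per the labels' protocols, the mapping tool was CLC Genomics Workbench. The annotation is not given in the sources used here. The same library differed between its tables by 1 constant factor, so groups were compared only within a table. Columns of both treated groups and of uninjected ileum carry a number that ties them to a group but not to a sample, and the libraries are called by that number. The design text counts 3 uninjected and 4 treated colon samples, but the labels and the columns, used here, give 4 and 3.

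Whole reads were worked out from the steps between low FPKM values with a tolerance of 0.01, and 85.4% to 85.8% of the genes of a table came out whole. They served only for depth. For each comparison, log2(FPKM + 0.5) was tested for genes averaging 1 FPKM or more with limma 3.58.1 in R 4.3.3 (intensity trend, two-sided, Benjamini-Hochberg over all genes, threshold 0.05). This scale understates changes of low genes. Intervals of differences are limma's 95% intervals. The fits were tested on simulated data. Of 2-fold changes they recovered 0.30% in treated minus uninjected ileum, 2.1% in treated minus uninjected colon and 33.1% in treated minus KO colon. The other comparisons lay between the last 2. Of 4-fold changes they recovered 16.4% in treated minus uninjected ileum to 80% in treated minus KO colon. A gene that did not pass may therefore still have changed. Tables were prepared with Python 3.11.15. Any of the 29 genes could be named, and of each further list up to 3 genes with the smallest p. The members and lists were chosen with earlier results of these data known. The alternatives were other pseudocounts, no filter, other scalings, left-out libraries, the replicate block and, chosen after seeing the data, removal of a GC and length trend, no intensity trend and fits without GC-tilted libraries.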

Additional observations from a re-analysis of the deposited data

Results flagged for a closer look

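Of 87 combinations of a gene and a group of 4 samples, 1 had a sample far from the others, where chance alone flags about 1 in 20. Abca1, the cholesterol efflux pump that oxysterols induce through LXR, had 2.33 FPKM in colon uninjected 4, the sample far from the others, against 0.50 to 0.80 FPKM in the other 3 uninjected colon libraries. Treated colon libraries had 0.87 to 3.17 FPKM in the same table. Uninjected 4 was the only male of its group and its deepest library, at 33.2 M reads. Its deviations over all genes rose with transcript length, by 0.26 per doubling, the highest slope of that table. Abca1 had the longest transcript of the genes described, at 10262 bases. The part of sex, depth and length was not tested.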

How the results depend on the processing

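No gene of cholesterol synthesis or SREBP control passed the threshold under any of 31 settings. Of 2543 recomputed values of single genes, 2537 moved by less than the spread between replicates and 6 moved by more. Moves within that spread still turned signs. Without the GC-tilted libraries, 15 of 28 genes kept their sign in uninjected minus KO ileum, the fewest. In treated minus KO colon 19 of 29 did, and in treated minus uninjected ileum 25 of 28, the most. Counts over all genes also varied. With the acinar-rich colon KO 2 and uninjected 3 left out, 17 genes passed in treated minus KO colon (37 as reported), 4 where treated was set against uninjected colon (0 as reported) and 3 in uninjected minus KO colon (10 as reported). With the GC and length trend removed, an alternative chosen after seeing the data, 59 passed in treated minus KO colon, 0 in uninjected minus KO ileum (1 as reported) and 1 in treated minus uninjected colon. Without a filter on low values 1 passed in treated minus uninjected colon, and with a pseudocount of 0.1 FPKM 2 passed in uninjected minus KO ileum. The cause was not tested.

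Leaving out single libraries gave 17 (without KO 1) to 49 genes (without treated 4) in treated minus KO colon, and 3 (without KO 1) to 14 (without treated 4) in treated minus KO ileum, where 10 passed as reported. It gave 0 to 4 genes (4 without uninjected 3) in treated minus uninjected colon, 2 (without KO 1) to 68 (without uninjected 4) in uninjected minus KO colon and 0 to 5 (5 without uninjected 4) in uninjected minus KO ileum. The median over the genes of the pathway in treated minus uninjected colon ran between -0.56 without treated 2 and -0.064 without treated 4, against -0.36 as reported. In treated minus KO ileum it ran between -0.30 without KO 4 and -0.14 without KO 2. A replicate block in uninjected minus KO colon left 3 genes and 0 of the pathway. Same-numbered libraries there had correlations of 0.00, 0.00, -0.01 and 0.67, and only number 4 correlated best with its own number. Such correlations cannot show whether the numbers pair the samples, and the reported fit uses no pairing. For the other comparisons, no paired analysis was possible because their columns carry no replicate number of the labels. With 12 to 214 reads per library, Fdft1 is limited by depth.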
